A study of Mus musculus with 4 samples.

Results

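The genes examined here encode receptors of interleukins, interferons and colony-stimulating factors in CD8α+ and CD8α− dendritic cells of mouse spleen. They were taken from a list of 34 receptor genes as the probe sets whose platform annotation gives 1 of those genes as the only symbol. This found 65 probe sets for 32 of the 34 genes, out of 34945 probe sets and 18193 genes with a single symbol on the array. No probe set was found in this way for Il1rl1 or Il2rg, and these genes were not analysed here. RNA was measured on Affymetrix whole-genome mouse arrays, which read each transcript with short oligonucleotides collected into probe sets. There were 4 arrays, 2 of CD8α+ and 2 of CD8α− splenic dendritic cells, all from C57BL/6 mice. The labels name no treatment, genetic change, age or number of animals, and the sources used here do not say how the cells were sorted. Nothing ties the 2 arrays of a cell type to different animals or sorts, so p-values here reflect the variation of these arrays alone, and it may be technical.

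Cytokine receptors are assembled from chains, some of which bind 1 ligand while others are shared between several. The common gamma chain serves interleukins such as IL-2, IL-4, IL-7, IL-15 and IL-21, the beta common chain serves IL-3, IL-5 and GM-CSF, and gp130 serves the IL-6 family. Interferons and IL-10 use class II receptors, and the IL-1 family uses receptors with an intracellular domain shared with Toll-like receptors. In dendritic cells such receptors are known to govern growth, survival and maturation. The comparison asks which of these chains differ in signal between the CD8α+ cells, known as conventional type 1 dendritic cells (cDC1), and the CD8α− cells, which are mostly type 2 (cDC2).

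The arrays were quantile normalized, since the deposited signals were not on a common scale, and signals below are normalized linear values. The CD8α− replicate 2 array stood apart. Its Gapdh control read 10.8 times more signal at the 3′ than at the 5′ end, against 1.53 to 2.02 times on the other arrays. Its Actb control went the other way, at 0.759 against 1.62 to 1.69, and its median deposited signal was 17.4 against 22.9 to 35.1. Among the receptor genes, 0 of 26 differed over 2-fold between the CD8α+ arrays and 10 of 26 between the CD8α− arrays. The median gap was 0.15 and 0.56 log2 units, compared with 0.19 and 0.66 over all genes tested. The cell labels were borne out by the markers. Cd8a read 2014 and 2335 on the CD8α+ arrays and 15.2 and 27.0 on the CD8α− arrays. Of 9 tested cDC1 markers, 8 were higher in CD8α+ cells, with summed signals of 10636 to 10876 against 1938 to 2312. Of 7 tested cDC2 markers, 6 were lower, with sums of 1441 to 1563 against 4740 to 7339. Markers of other cells differed as well, and Csf1r was in both the cDC2 and the monocyte list. Sums on the CD8α+ and CD8α− arrays were 746 to 936 and 2502 to 3998 for natural killer (NK) cells (7 of 8 lower in CD8α+ cells), 3777 to 3879 and 7034 to 9748 for monocytes (5 of 5 lower), 1585 to 1617 and 2576 to 3933 for macrophages (5 of 6 lower), and 6705 to 7325 and 10902 to 13809 for neutrophils (5 of 6 lower). B cell markers summed to 1024 to 1131 and 2121 to 2738 (2 of 4 lower), plasmacytoid markers to 981 to 1106 and 1540 to 2230 (2 of 5 lower), T cell markers to 523 to 708 and 495 to 535 (1 of 6 lower), and markers of all dendritic cells to 30508 to 31001 and 21997 to 30372 (1 of 8 lower). Of 6 basophil and mast cell markers only Gata2 was tested (a difference of 0.05), and 0 of 5 erythroid markers were. The part of these cells in the receptor differences was not tested, and in bulk RNA fewer cells of a type and less RNA per cell cannot be told apart.

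Receptor genes with less signal in CD8α+ cells outnumbered those with more. Of the 34 genes, 26 had a probe set bright enough to test (a mean signal of at least 23.0). Their differences, as log2 signal in CD8α+ minus CD8α− cells, ran from -2.20 for Il21r to 1.77 for Csf2rb2 among the genes above background on all arrays, while Lifr and Il15ra were below it in 1 group and have only bounds. The fitted difference was negative for 19 and positive for 7 (51.1% and 48.9% of all genes). The median was -0.37, against -0.02 over the 10532 genes tested. In limma, 0 of the 26 passed an adjusted p of 0.05, as did 0 of all genes (0%), so no receptor gene is called changed here. The lowest adjusted p among them was 0.104, for Il15ra. At an unadjusted p under 0.05, 7 receptor genes were lower in CD8α+ cells (Il1r2, Il18rap, Il4ra, Il21r, Lifr, Ifnar2 and Ifngr1), where 8.82% of all genes were. At the same level 2 were higher (Il15ra and Csf2rb2), where 7.13% of all genes were. Lifr and Il15ra reached the mean signal of 23.0 only through their brighter group, so a difference was partly built into their being tested. The groups did not overlap for 11 receptor genes that were lower and 4 that were higher, beside 28.3% and 25.6% of all genes. These counts move with single arrays: without CD8α+ replicate 1 or 2 there were 2 lower (Il21r and Lifr) and 1 higher (Il15ra), beside 3.25% or 4.31% lower and 2% or 1.92% higher of all genes. Without CD8α− replicate 1 there were 12 and 7, beside 21.4% and 22.7% of all genes, and without CD8α− replicate 2 there were 13 and 4, beside 12.3% and 15.9%. The split also moves with the scaling. On the scale as deposited the counts were 1 lower and 4 higher (250 and 1111 of all genes), and with median centring 2 and 5 (447 and 3032 of all genes). There the median receptor gene stood at 0.24 and 0.25 as fitted, and the median of all genes at 0.67 and 0.69, so the receptor median was positive there and still below the median gene. The deposited signals of Il7r, Crlf2, Il10rb, Ifnar2, Ifngr1 and Il17ra overlapped between groups, where the normalized ones did not. With a common trimmed mean the counts were 5 lower and 1 higher (1765 and 627 of all genes). Differences given with an array left out are relative to the shift of the median gene.

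**Figure D1:**
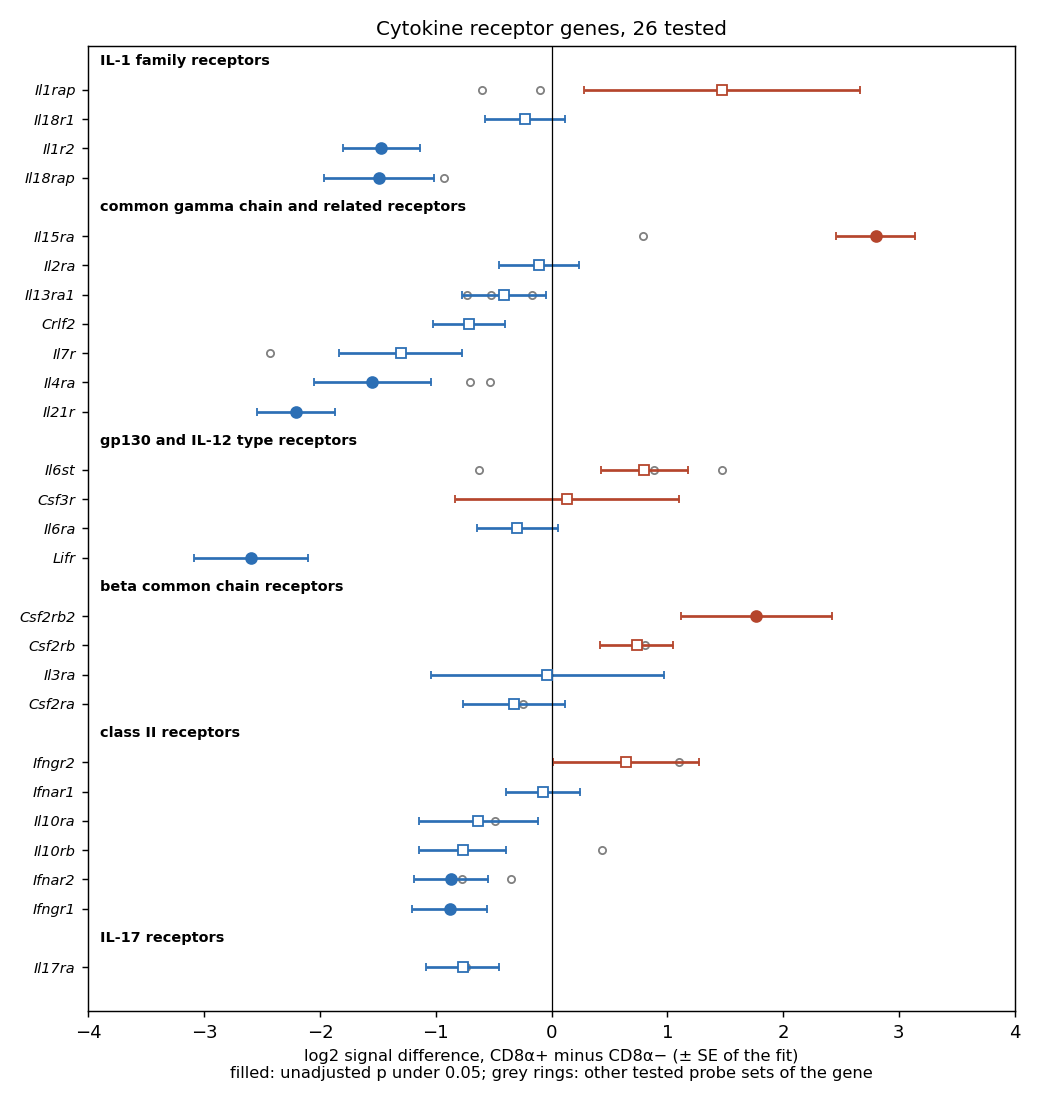
Each row is a receptor gene, and the horizontal axis is the log2 signal difference of CD8α+ minus CD8α− cells, with bars of 1 standard error from the limma model and 2 arrays per group. Filled points have an unadjusted p under 0.05, and grey rings are the gene's other tested probe sets. The points of Il15ra (2.80) and Lifr (-2.60) have no exact size, since 1 group was below background. Those of Il1rap (1.47), Csf3r (0.13) and Il3ra (-0.04) have none either, since 1 CD8α− array was below it. Il21r (-2.20) and Csf2rb2 (1.77) were above background on all arrays.

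Among receptors of the IL-1 family, the decoy receptor Il1r2, which binds IL-1 without signalling, had the smallest p. Its signal was 1493 and 1508 on the CD8α+ arrays and 3630 and 4757 on the CD8α− arrays. Both CD8α− arrays lay above both CD8α+ arrays, and the difference was -1.47 ± 0.33 (SE, n = 2 per group), a 2.77-fold lower signal in CD8α+ cells (adjusted p = 0.175). Il1r2 is also known from neutrophils, whose markers summed to 6705 to 7325 on the CD8α+ and 10902 to 13809 on the CD8α− arrays. Il18rap, the accessory chain of the IL-18 receptor, read 46.5 and 40.5 in CD8α+ and 84.0 and 178 in CD8α− cells. The groups were separate, with a difference of -1.49 ± 0.48 (2.82-fold lower, adjusted p = 0.264), though the 2 CD8α− arrays were themselves over 2-fold apart. Without CD8α− replicate 2 the Il18rap difference was -0.96. Its dimmer probe set overlapped between groups, at -0.93 ± 1.02. The binding chain Il18r1 overlapped between groups, at 34.2 and 28.2 against 31.6 and 42.1. Il18rap is also an NK cell gene, and NK markers summed to 746 to 936 on the CD8α+ and 2502 to 3998 on the CD8α− arrays. Il1rap, the accessory chain of the signalling IL-1 receptor and of the IL-33 receptor, was not resolved. Its brightest probe set read 59.6 and 68.1 in CD8α+ cells and 75.6 and 2.30 in CD8α− cells, so the fitted 1.47 ± 1.19 rests on CD8α− replicate 2 alone and was -0.25 without it. The other 2 tested Il1rap probe sets had differences of -0.60 and -0.10. The signalling receptor Il1r1 had no probe set past the filter, and of its 2 probe sets 1 exceeded background on 1 array.

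The chains around the common gamma chain held the receptor genes with the smallest p in either direction. Il21r, the specific chain of the IL-21 receptor, read 77.7 and 86.0 in CD8α+ cells and 437 and 325 in CD8α− cells. All 4 signals lay above background, which was set on every array by its brightest Bacillus control (21.8 to 34.5), and the groups were separate. The difference was -2.20 ± 0.34, 4.61-fold lower in CD8α+ cells (adjusted p = 0.117), and stayed between -2.42 and -1.90 when any 1 array was left out. Il4ra, the chain that binds IL-4 and serves IL-13 as well, read 222 and 282 against 487 and 1095. The difference was -1.55 ± 0.51 (2.92-fold lower, adjusted p = 0.271), and the other 2 Il4ra probe sets were also negative, at -0.70 and -0.53. Without CD8α− replicate 2 the Il4ra difference was -0.97. Il13ra1, which pairs with Il4ra, overlapped between groups, at 240 and 166 against 296 and 238, and its 4 tested probe sets ran from -0.73 to -0.17. Il7r, the IL-7 receptor chain, read 168 and 172 against 663 and 265.5, a separation of -1.30 ± 0.54 (2.47-fold lower, adjusted p = 0.341). Its other probe set gave -2.43 ± 0.40, with 38.6 and 29.3 against 144 and 228. Leaving out CD8α− replicate 2 moved the first to -1.97, and leaving out CD8α− replicate 1 moved it to -0.55. On the other probe set CD8α− replicate 2 was the brighter CD8α− array, and on the first it was the dimmer. Deposited signals of the first overlapped between groups, at 224.5 and 244 against 705 and 125. Crlf2, which joins Il7r in the receptor of thymic stromal lymphopoietin, read 281 and 267 against 479 and 422, a difference of -0.72 ± 0.31 (1.64-fold lower, adjusted p = 0.355). Its deposited signals, 387 and 382.5 against 506 and 198, overlapped between groups. Il2ra, the alpha chain of the IL-2 receptor, overlapped at 48.4 and 44.1 against 58.8 and 42.1. Il21r, Il7r and Il4ra are also expressed by lymphocytes. Beside them, the summed NK and B cell markers were lower on both CD8α+ arrays, although 2 of the 4 tested B cell markers had a positive difference. Most of the B cell sums was Ighm, at 826 and 902 against 1971 and 2549, while Ms4a1 was higher in CD8α+ cells, at 125 and 132 against 45.6 and 48.6. Of 6 T cell markers 5 had a positive difference, but 0 had an unadjusted p under 0.05 in limma. Their sums overlapped, at 523 to 708 against 495 to 535. The part of lymphocytes in these differences was not tested.

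Il15ra, which captures IL-15 and presents it to neighbouring cells, ran the other way. On its brightest probe set by mean signal it read 60.1 and 52.8 in CD8α+ cells and 2.30 and 9.39 in CD8α− cells. Both CD8α+ arrays exceeded background and neither CD8α− array did, so the difference of 2.80 ± 0.34 (adjusted p = 0.104) has no exact size and is at least 1.80-fold, the CD8α+ mean over the background of the CD8α− arrays. Both Il15ra probe sets passed the filter only through the CD8α+ arrays. The second probe set read 35.02 and 39.5 against 18.2 and 25.5, with both CD8α− signals below background, so its fitted difference of 0.79 ± 0.35 has no exact size either. It represents the gene when probe sets are ranked by mean log2 signal or when arrays are scaled to a common trimmed mean, and the differences, relative to the median gene, are then 0.79 and 0.21. Il2rb, the chain that carries the IL-15 signal together with the gamma chain, is no member of the list. It read 18.7 and 29.4 against 122.5 and 166, a difference of -2.60 ± 0.40 (adjusted p = 0.117), with 1 CD8α+ array above background. Il2rb is also an NK cell gene, and 7 of 8 NK markers were lower in CD8α+ cells, with sums of 746 to 936 against 2502 to 3998. The cytokine Il15 read 74.2 and 105 against 105 and 27.2, and its groups overlapped.

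**Figure D2:**
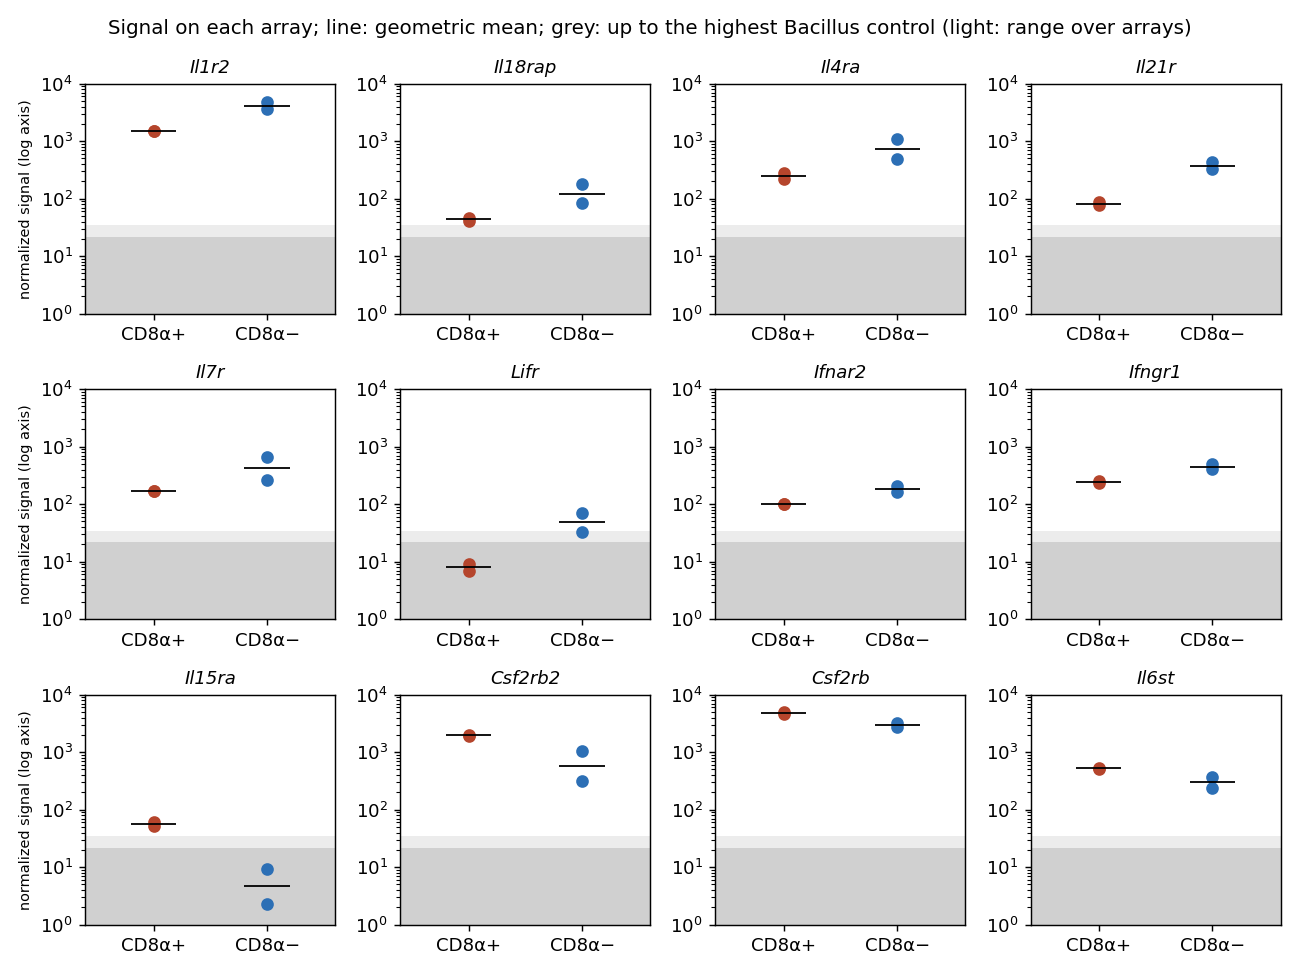
Each panel shows 1 receptor gene, with the normalized signal of each array on a log axis for CD8α+ (red) and CD8α− (blue) cells and a line at the geometric mean of each pair. The grey area lies below the highest Bacillus control, 21.8 to 34.5 over the arrays; Lifr in CD8α+ cells and Il15ra in CD8α− cells fall within it, and the CD8α− pairs are wider than the CD8α+ pairs.

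Many of these genes lie side by side in the genome. In the RefSeq gene table (GRCm38.p6), 17 of the 34 stand next to another member or 1 protein-coding gene away. The lower Il4ra and Il21r are direct neighbours on chromosome 7. On chromosome 2, Il15ra (2.80) neighbours Il2ra (-0.11). On chromosome 1, Il1r2 and Il18rap lie at opposite ends of a run that includes Il1r1, Il1rl1 and Il18r1 (-0.23). On chromosome 16, the order Ifnar2, Il10rb, Ifnar1, Ifngr2 had differences of -0.87, -0.77, -0.07 and 0.64, of which the last 2 came from overlapping groups. To show the neighbouring pair that was lower and the gene that ran the other way, the 250 bases before their starts are printed 5′ to 3′ on the plus strand of GRCm38.p6, from RefSeq. Capitals mark a match on either strand to 1 of 4 motifs, the PU.1 core GAGGAA, the gamma-activated sequence TTCNNNGAA, the interferon-stimulated element (GAAA, any 2 bases and GAAA) and the AP-1 site TGANTCA, with no overlap between matches. The windows are chr7:125552021-125552270 for Il4ra, chr7:125603179-125603428 for Il21r, and chr2:11705043-11705292 and chr2:11705462-11705711 for the upstream and downstream starts of Il15ra.
Il4ra: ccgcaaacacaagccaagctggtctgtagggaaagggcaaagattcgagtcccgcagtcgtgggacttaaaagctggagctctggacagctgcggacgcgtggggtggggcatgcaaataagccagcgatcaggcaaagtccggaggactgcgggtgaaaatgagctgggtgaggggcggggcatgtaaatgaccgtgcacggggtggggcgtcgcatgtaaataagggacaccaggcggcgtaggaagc
Il21r: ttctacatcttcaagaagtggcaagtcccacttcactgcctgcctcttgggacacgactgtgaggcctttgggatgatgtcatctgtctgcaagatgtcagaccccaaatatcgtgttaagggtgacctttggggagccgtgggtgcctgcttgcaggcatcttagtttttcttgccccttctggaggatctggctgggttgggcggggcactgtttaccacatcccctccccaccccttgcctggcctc
Il15ra upstream start: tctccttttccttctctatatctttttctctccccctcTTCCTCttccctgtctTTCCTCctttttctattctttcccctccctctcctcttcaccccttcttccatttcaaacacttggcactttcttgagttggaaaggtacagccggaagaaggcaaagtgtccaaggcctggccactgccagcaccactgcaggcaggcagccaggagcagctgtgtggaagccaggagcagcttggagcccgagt
Il15ra downstream start: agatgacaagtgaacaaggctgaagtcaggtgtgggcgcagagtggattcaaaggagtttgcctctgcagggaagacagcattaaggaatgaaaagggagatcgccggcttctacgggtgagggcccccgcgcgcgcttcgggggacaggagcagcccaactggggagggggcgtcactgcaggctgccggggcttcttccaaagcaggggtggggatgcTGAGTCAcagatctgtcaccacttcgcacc
The Il4ra and Il21r windows held none of the 4 motifs. The upstream Il15ra window held the PU.1 core at 212 and 196 bases before the start, and the downstream one an AP-1 site at 30 bases. Windows were found for 28 of the 34 genes, 34 windows in all. The PU.1 core was in 10 of them (29.4%, against 23.3% of all 32851 windows), the gamma-activated sequence in 6 (17.6%, against 7.02%), the AP-1 site in 2 (5.88%, against 6.75%) and the interferon-stimulated element in 0 (against 2.98%). The motifs were chosen after results and sequences had been seen, and a match describes letters only.

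Of the gp130 and IL-12 type receptors, Lifr, the chain that binds leukaemia inhibitory factor, was lower in CD8α+ cells. It read 9.01 and 6.99 against 32.8 and 70.3. Neither CD8α+ array exceeded background and both CD8α− arrays did, so the difference of -2.60 ± 0.49 (adjusted p = 0.144) stands for a signal at least 1.85-fold lower in CD8α+ cells. This probe set passed the filter only through the CD8α− arrays, and the other 2 Lifr probe sets were too dim to test. Osmr, the oncostatin M receptor chain and the neighbour of Lifr on chromosome 15, had 3 probe sets under the filter. The brightest of these read 4.46 and 3.07 in CD8α+ cells and 39.5 and 31.3 in CD8α− cells, where 1 array exceeded background. Il6st (gp130), their shared partner, was higher in CD8α+ cells on 3 of 4 probe sets. On the brightest it read 513 and 532 against 375 and 239, a difference of 0.80 ± 0.37 (1.74-fold, adjusted p = 0.383), and the 4 ranged from -0.63 to 1.48. The negative one exceeded background on 1 array, and the one at 1.48 on 2, with both CD8α− signals below it, so neither has an exact size. Leaving out 1 array moved the brightest to between 0.47 (CD8α− replicate 2) and 1.22 (CD8α− replicate 1). Il6ra, the IL-6 binding chain, overlapped at 256 and 273 against 269 and 390. Csf3r, the receptor of G-CSF, read 54.65 and 38.5 against 107 and 16.4. The CD8α− arrays lay on opposite sides of the CD8α+ pair, and the fitted 0.13 ± 0.97 became -1.22 without CD8α− replicate 2 and 1.57 without CD8α− replicate 1. The IL-12 receptor chains Il12rb1 and Il12rb2 and the IL-27 receptor Il27ra did not pass the filter, and their probe sets exceeded background on at most 1 array, so a difference was not detectable at these signals.

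Of the 4 beta common chain receptor genes, 1 (Csf2rb2) was higher in CD8α+ cells at an unadjusted p under 0.05, where 7.13% of all genes were. The groups were separate with more signal in CD8α+ cells for 2 of the 4, beside 25.6% of all genes. Csf2rb, the signalling chain of the GM-CSF, IL-3 and IL-5 receptors, read 5088 and 4693 against 2706 and 3190. The groups were separate, with 0.73 ± 0.32 on this probe set (1.66-fold, adjusted p = 0.355) and 0.81 ± 0.32 on the other, and leaving out 1 array gave 0.65 to 0.85. Csf2rb2, its neighbour and near-identical mouse copy, which serves IL-3 only, read 1913 and 1992 against 1044 and 315. The difference was 1.77 ± 0.65 (3.41-fold, adjusted p = 0.306), and leaving out CD8α− replicate 2 gave 0.90 where leaving out CD8α− replicate 1 gave 2.72. Since the copies share sequence, their probe sets may share transcripts, and which copy a signal comes from is uncertain. The differences of the ligand-binding chains from Csf2rb were not tested. Csf2ra, the GM-CSF binding chain, overlapped at 801 and 888 against 761 and 1461, with its 2 probe sets at -0.32 and -0.25. Il3ra, the IL-3 binding chain, read 32.8 and 39.3 against 99.3 and 13.65, and the CD8α− arrays again lay on opposite sides. The window before the start of Csf2rb2, on the minus strand at chr15:78305722-78305971, is printed because it held both a PU.1 core, 167 bases before the start, and a gamma-activated sequence at 15 bases, in capitals.
Csf2rb2: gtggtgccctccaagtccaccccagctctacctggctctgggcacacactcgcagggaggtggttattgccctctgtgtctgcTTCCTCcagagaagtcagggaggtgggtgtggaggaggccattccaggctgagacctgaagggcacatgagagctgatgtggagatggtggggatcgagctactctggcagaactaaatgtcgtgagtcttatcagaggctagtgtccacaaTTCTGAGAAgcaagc

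Of the 6 class II receptor genes, 5 had a negative difference, beside 51.1% of all genes. At an unadjusted p under 0.05, 2 of them (Ifngr1 and Ifnar2) were lower, where 8.82% of all genes were. Ifngr1, the binding chain of the interferon gamma receptor, read 257 and 233 against 408 and 497, a separation of -0.88 ± 0.32 (1.84-fold lower in CD8α+ cells, adjusted p = 0.302). Its deposited signals overlapped between groups, at 354 and 332 against 431 and 232. Ifngr2, the signalling chain of the same receptor, read 385 and 369 against 136 and 428, with 0.64 ± 0.63 and overlapping groups, and 1.10 ± 0.83 on its other probe set. Without CD8α− replicate 1 the Ifngr2 difference was -0.09, and without CD8α− replicate 2 it was 1.46. Ifnar2, a chain of the type I interferon receptor, read 99.3 and 102 against 165 and 206, a separation of -0.87 ± 0.32 (1.83-fold lower, adjusted p = 0.308). Its other 2 probe sets were also negative, at -0.78 and -0.35. On the first, the deposited Ifnar2 signals overlapped between groups, at 126 and 135 against 176 and 98.2. Ifnar1, the other chain, read 607 and 706.5 against 648 and 732, a difference of -0.07 ± 0.32, and its groups overlapped. Whether the chains of a receptor differ from each other was not tested. Il10rb, shared by IL-10 and related cytokines, was -0.77 ± 0.37 on a separate pair of groups (205 and 247 against 470 and 312.5), and 0.44 on a dimmer probe set that exceeded background on 1 array. Without CD8α− replicate 1 the Il10rb difference was -0.38, and dropping CD8α− replicate 2 gave -1.07. In deposited signal the Il10rb groups overlapped, at 279 and 355 against 496.5 and 147. Il10ra, the IL-10 binding chain, read 108 and 114 against 112 and 264 and overlapped, with its 2 tested probe sets at -0.63 and -0.49. The first was -0.0162 without CD8α− replicate 2 and -1.16 when CD8α− replicate 1 was left out. Il17ra, the shared chain of the IL-17 receptors, read 320 and 282 against 546 and 480, a separation of -0.77 ± 0.32 (1.70-fold lower, adjusted p = 0.341), with -0.74 on the other probe set. As deposited, the first read 439 and 405.5 against 578 and 225, and the groups overlapped. Il17rb did not pass the filter and its probe set exceeded background on 0 arrays.

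**Figure D3:**
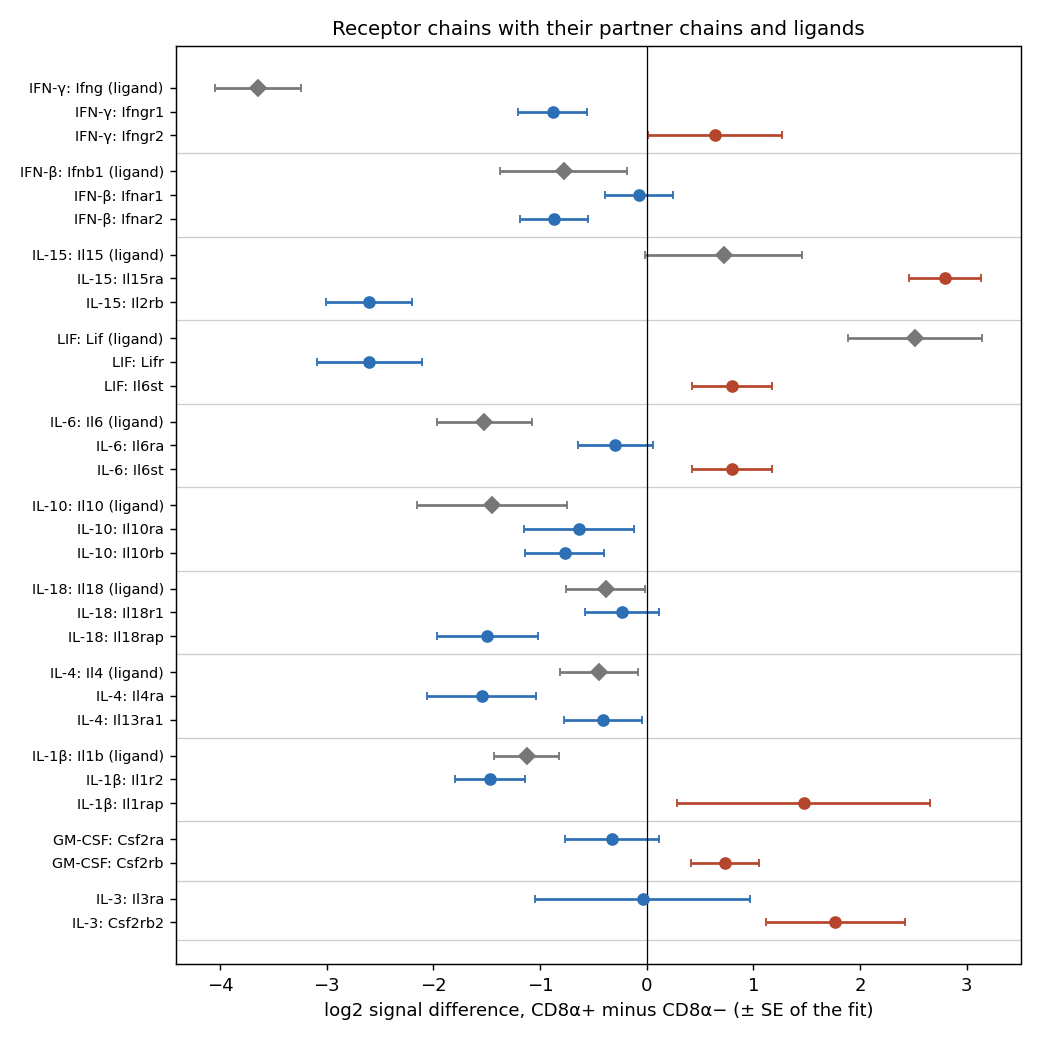
Rows give receptor chains (circles, red for a positive and blue for a negative difference) grouped under the cytokine they serve, with the ligand gene (grey diamonds) where it was tested, and the horizontal axis is the log2 signal difference of CD8α+ minus CD8α− cells with bars of 1 standard error. Ifngr1 lies at -0.88 and Ifngr2 at 0.64 with a wide bar, and the differences between chains were not tested. Il15ra, Lifr, Ifng, Lif, Il2rb, Il1rap, Il3ra, Il15, Il10, Ifnb1 and Il4 were below background on some arrays, so their points have no exact size.

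The ligands, other receptors and signalling genes were counted in the same way. Of 37 ligand genes 14 were tested, with 6 lower and 2 higher at an unadjusted p under 0.05 and a median of -0.95. Ifng, the ligand of the Ifngr1 and Ifngr2 receptor, read 12.3 and 5.64 against 115 and 116, at least 4.45-fold lower, and is also an NK cell gene. Il1rn, the antagonist of the IL-1 receptor, read 583.5 and 646 against 2691 and 3683 (5.13-fold lower, adjusted p = 0.115), and Il1b read 1789 and 1829 against 3837 and 4042 (2.18-fold lower, adjusted p = 0.225). Lif, the ligand of Lifr, was higher, at 75.1 and 66.2 against 2.31 and 21.7 (at least 2.26-fold, adjusted p = 0.203), and Il12b read 337 and 345 against 83.9 and 84.7 (4.05-fold higher, adjusted p = 0.115). Ifng and Lif passed the filter only through their brighter group. Il18 read 225 and 223 against 234 and 364, a difference of -0.38 ± 0.37. Osm read 71.8 and 63.2 against 216.5 and 334 (3.99-fold lower, adjusted p = 0.144), and Il6, the ligand of Il6ra, 36.6 and 56.0 against 100.1 and 169 (2.87-fold lower, adjusted p = 0.240). Il10, Ifnb1 and Il4 were near background, which Il10 exceeded on 1 CD8α+ and 2 CD8α− arrays, Ifnb1 on 1 array of each group and Il4 on 1 CD8α+ array, and no size is given for them.

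Of 29 other cytokine receptor genes 9 were tested, with 4 lower and 0 higher at that level and a median of -1.05. Csf1r, the M-CSF receptor, read 213.5 and 213.2 against 1305 and 1886 (7.35-fold lower, adjusted p = 0.104). It is also a monocyte and macrophage gene, and was counted among the cDC2 and monocyte markers above. Flt3, the growth factor receptor of dendritic cells, read 562 and 757 against 436 and 219, a difference of 1.08 ± 0.47 (adjusted p = 0.359), and the other positive gene was Lepr, the leptin receptor (0.74 ± 0.91, with 1 CD8α− array above background). Of 19 Jak, Stat and Socs genes 16 were tested, with 2 lower and 0 higher and a median of -0.30. Socs3, an inhibitor induced by gp130 cytokines, read 89.0 and 108 against 271 and 554 (3.95-fold lower, adjusted p = 0.185), and Stat5b, which signals for IL-2 and GM-CSF type receptors, read 243 and 214 against 368 and 543 (1.96-fold lower, adjusted p = 0.310). The kinase Tyk2, used by interferon and IL-12 receptors, had a difference of 0.96 ± 0.38 (adjusted p = 0.326). Stat4, which signals for IL-12, had a difference of 0.39 ± 1.01. Its CD8α− arrays (1098 and 147) lay on opposite sides of the CD8α+ arrays (524 and 530). Of 12 genes of IL-1 receptor signalling 10 were tested, with 1 lower and 0 higher and a median of -0.39. That gene was Peli1, a ubiquitin ligase of the pathway, at 260 and 249 against 488 and 659 (2.23-fold lower, adjusted p = 0.240). Tab2 (-0.60 ± 0.37) followed by p. Its partner kinase Map3k7 (0.95 ± 1.05) was the only positive gene, and its groups overlapped, at 389 and 391 against 572 and 71.6. None of the genes in these lists passed an adjusted p of 0.05 in limma, and the counts stand beside the 8.82% and 7.13% of all genes given above.

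**Figure D4:**
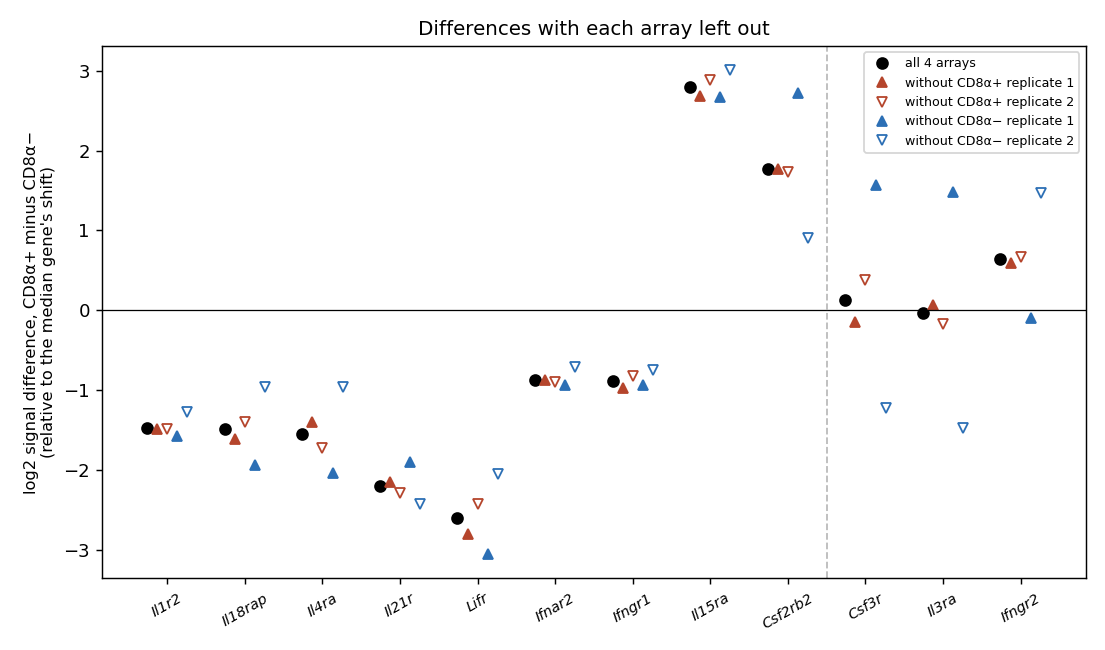
For 12 receptor genes, the vertical axis gives the log2 signal difference of CD8α+ minus CD8α− cells with all 4 arrays (black) and with each array left out, relative to the shift of the median gene. The 9 genes left of the dashed line, those with an unadjusted p under 0.05, keep their side of 0, while Csf3r, Il3ra and Ifngr2 on the right cross it. The 9 genes were chosen by p on these same arrays and their groups do not overlap. Leaving out an array could therefore hardly change their side. The groups of Csf3r, Il3ra and Ifngr2 overlap, so the contrast between left and right is no test of stability.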

How the data were processed

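The authors deposited linear intensity values, 1 MAS5 signal per probe set and array, for 2 arrays of each cell type. The submitters' processing notes list MAS5, while Affymetrix Microarray Suite with GeneSpring appears in the design text. No detection calls were used here. RNA handling is described differently in the design text (Oligotex mRNA, Ovation cDNA) and the labels (Trizol total RNA, cRNA).

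Log2 signals were quantile normalized, floored at 6.99 (the mean 25th percentile) and kept where the mean linear signal reached the median, 23.0, leaving 22519 of 45037 probe sets other than the 64 controls. The tested probe set of highest mean linear signal stood for each gene, _x_at sets last. The cell types were tested in limma 3.58.1 under R 4.3.3 (eBayes, two-sided, Benjamini-Hochberg over 10532 genes). Exact permutation of 2 against 2 arrays cannot give a p under 0.333 and was not used. Background was the highest of 27 Bacillus controls per array. Tables used Python 3.11.15 and pandas 2.3.3, and figures matplotlib 3.10.9. The members, lists, normalization and named genes were chosen with earlier results of these data known. Named genes are all members, those with unadjusted p under 0.05 or separate groups over 1 log2 unit apart and their partners with all 4 signals, and from each pathway list up to 2 genes of smallest p per direction and ligands of named receptors. Alternatives covered scaling, filter, floor, trend, probe set choice, a replicate block and each array left out.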

Additional observations from a re-analysis of the deposited data

How the results depend on the processing

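No alternative reversed the median of the receptor genes, given relative to the shift of all genes, nor the sign of the 9 receptor genes with an unadjusted p under 0.05. The normalized signals of these 9 genes do not overlap between groups, so leaving out an array could hardly turn their sign and does not test it. The number of genes at an adjusted p under 0.05 was 0 with the scaling used, and 15 with a replicate block, 19 without a floor, 61 with the stricter filter, 73 with an intensity trend and 232 with median centring, and 0 to 1223 with 1 array left out. The receptor gene among these calls was Il15ra with median centring, and there were 8 once CD8α− replicate 1 was left out, when only the close CD8α+ pair gives a spread (Csf2rb2, Il15ra, Il18rap, Il1r2, Il1rap, Il21r, Il4ra and Lifr). The median gene moved to 0.67 on the deposited scale, 0.69 with median centring and -0.18 with a common trimmed mean. Receptor genes lower at an unadjusted p numbered 1 on the deposited scale, 2 with median centring and 2 to 13 with 1 array left out. Those higher numbered 4, 5 and 1 to 7 there, 1 with the trimmed mean and 1 with the probe set of highest mean log2 signal, an alternative chosen after seeing the data. The receptor median was -0.58 with no filter, -0.72 with the stricter filter, -0.50 with that probe set choice and -0.64 to -0.38 with 1 array left out. The replicate numbers share no stated origin, and the deviations of same-numbered arrays correlated at 0.03. This value cannot tell whether they share animals or a sort. In the CD8α− pair 32.2% of probe sets differed over 2-fold, against 8.47% in the CD8α+ pair. The block left 2 receptor genes higher and 6 lower at an unadjusted p under 0.05, beside 7.65% and 8.33% of all genes.

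Relative to the shift of all genes, signs turned for other receptor genes. Csf3r was -0.24 on the deposited scale, -0.20 with the trimmed mean, -0.25 with median centring and -0.0192 without a floor, and ran from -1.22 to 1.57 with 1 array left out. Ifnar1 was 0.23, 0.27 and 0.22 under those scalings and -0.19 to 0.0129 with 1 array left out, Il6ra was 0.0366 with the trimmed mean, and Il1rap was -0.60 with the probe set of highest mean log2 signal. With 1 array left out Il1rap ran from -0.25 to 3.28, Il2ra from -0.35 to 0.22, Il3ra from -1.47 to 1.48, Csf2ra from -0.70 to 0.14 and Ifngr2 from -0.0937 to 1.46. The cause of these moves was not tested. Leaving out 1 array assumes that the lone array varies like the other group. Signals near background limit Il15ra, Lifr, Il1rap, Il18r1, Il3ra and Csf3r.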
